A study of Mus musculus with 27 samples.

Results

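The replication-dependent histone genes are the clustered, mostly intronless genes that supply new chromatin with histones when DNA is copied. Members were taken as every row of the deposited gene count matrix whose mouse symbol, in the GENCODE M21 annotation of GRCm38, starts with Hist1h, Hist2h, Hist3h or Hist4h, pseudogenes left out. This gave 62 of 26802 rows: 6 genes for the linker histone H1, 16 for H2A, 17 for H2B, 10 for H3 and 13 for H4. Of these, 54 lie in the Hist1 cluster on chromosome 13, 5 in Hist2 on chromosome 3, 2 in Hist3 on chromosome 11 and 1 (Hist4h4) on chromosome 6. A further 5 annotated genes of the Hist2 cluster (Hist2h2aa1, Hist2h2aa2, Hist2h3c1, Hist2h3b and Hist2h2bb) were not analysed here.

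The study measured total RNA from mouse CD4+ and CD8+ T cells in 27 bulk libraries, 3 in each of 9 groups. Cells were pooled from lymph nodes and spleen, enriched by removing other cells with magnetic beads, and kept for 48 h either with the survival cytokine IL-7 at 5 ng/ml (resting) or in wells coated with 10 µg/ml antibodies against CD3 and CD28 (stimulated). After culture, cells negative for the dead-cell stains MFG-E8 and 7-AAD were sorted, in all 27 libraries. The series' design text names the viability dye FVD780 with MFG-E8 instead. The genotypes were B6-wt (here WT), B6-Tg(Cd4-cre)1Cwi-Rptortm1.1Dmsa (Raptor KO) and B6-Tg(Cd4-cre)1Cwi-Rictortm1.1Klg (Rictor KO). WT and Raptor KO cells were measured in both cell types, resting and stimulated, and Rictor KO cells only as stimulated CD8+ cells. In the KO mice the Cre recombinase is driven by Cd4 regulatory sequence, which is active in thymocytes before the CD4 and CD8 lineages part. The WT label names no Cre transgene, so Cre and the deleted allele were not separated by these groups. The labels give neither age nor sex, and they do not say that replicates were different animals. Each title also carries a code: it is StP212, StP213 and StP219 for replicates 1, 2 and 3 of the 8 WT and Raptor KO groups, and StP219 for all 3 Rictor KO libraries. What the code stands for is not said. The p-values therefore reflect variation among these libraries, which may be technical.

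As background, the core histones H2A, H2B, H3 and H4 form the protein spool of the nucleosome, and H1 binds the DNA between spools. The replication-dependent genes are transcribed in S phase under the coactivator NPAT, and most of their mRNAs carry no poly(A) tail. The mRNA instead ends in a short stem-loop, which SLBP binds and which the U7 snRNP helps to form by cutting the precursor. When DNA synthesis stops, the stem-loop mRNAs are uridylated and degraded, and several of these genes can also make longer, polyadenylated transcripts in cells that do not divide. Resting T cells are quiescent and enter the cell cycle after triggering of the T cell receptor with CD28. Raptor and Rictor are the defining subunits of the kinase complexes mTORC1 and mTORC2, which act in growth and metabolism.

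The stem-loop is shown because it is the mark that sets these mRNAs apart. It was looked for as a fully paired 6-base stem that starts with GG, around a 4-base loop that starts with TT. The search covered 120 bases after the stop codon, in the GENCODE M21 transcripts. Of the 48 members annotated for at least 40 bases after the stop codon, 41 carried such an element, 22 to 55 bases after the stop: 4 of 5 for H1, 9 of 9 for H2A, 10 of 14 for H2B, 7 of 8 for H3 and 11 of 12 for H4. The forms are written 5′ to 3′ with the stem in capitals.
Form in 23 members: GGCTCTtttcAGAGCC
Form in 6 members: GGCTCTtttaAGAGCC
Form in 1 member: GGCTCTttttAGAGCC
Form in 7 H4 genes: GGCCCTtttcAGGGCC
Form in 2 H4 genes: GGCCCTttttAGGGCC
Form in another 2 H4 genes: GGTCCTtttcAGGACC
The last 3 forms were found in H4 genes and in no other histone type. Only stems whose arms pair in full were accepted, so the pairing in each form was set by the search.

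Promoters of 57 members were matched in RefSeq (GRCm38.p6), as windows from 250 bases before to 50 bases after the annotated start. Hist1h3f, Hist1h2bc, Hist1h3a, Hist2h2be and Hist2h4 were not matched. Letters were searched on both strands, and none of the 196 matches overlapped another in the same window. The TATA box, written TATAAA, stood in 34 of 57 member windows (59.7%) and in 14.2% of all 27025 RefSeq promoters of the same length. CCAAT stood in 48 of 57 (84.2%, against 37.9% of all promoters), in every matched H1, H2A, H2B and H3 window but in 3 of 12 for H4. The octamer ATTTGCAT, the letters read by POU factors such as Oct-1, stood in 7 of 16 H2A and 5 of 15 H2B windows and in no window of H1, H3 or H4 (21.1% of members, 1.75% of all promoters). The H1 box AAACACA stood in 5 of 6 H1 windows and in 9 of 57 overall (15.8%, against 7.14%). In 12 pairs of an H2A and an H2B gene the starts face away from each other across 175 to 305 bases. Where both genes of a pair were matched, their windows overlap, and the same letters can be counted for each gene. The H2A and H2B counts are therefore not independent. A match of letters is a description and does not show that a factor binds there.

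Printed next are 200 bases around the start (180 before, 20 after) for 6 members that the results return to, on the gene's strand, 5′ to 3′, with any of these motifs in capitals. They are Hist1h1b (chr13:21780606-21780805, minus strand), Hist1h2bk (chr13:22035641-22035840, plus), Hist1h3b (chr13:23752165-23752364, plus), Hist1h4f (chr13:23551649-23551848, minus), Hist1h2ad (chr13:23574201-23574400, plus) and Hist1h3d (chr13:23575583-23575782, plus). The first 4 stand for the H1, H2B, H3 and H4 genes with large stimulation changes, and the last 2 are the neighbours that were lower in Raptor KO cells.
Hist1h1b: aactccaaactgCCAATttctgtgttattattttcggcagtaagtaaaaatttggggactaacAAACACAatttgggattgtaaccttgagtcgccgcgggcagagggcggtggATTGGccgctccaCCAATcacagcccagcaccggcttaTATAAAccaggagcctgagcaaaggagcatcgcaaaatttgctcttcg
Hist1h2bk: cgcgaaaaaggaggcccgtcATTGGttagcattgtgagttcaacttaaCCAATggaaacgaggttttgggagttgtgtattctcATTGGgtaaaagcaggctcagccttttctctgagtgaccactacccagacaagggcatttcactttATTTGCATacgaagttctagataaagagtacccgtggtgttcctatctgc
Hist1h3b: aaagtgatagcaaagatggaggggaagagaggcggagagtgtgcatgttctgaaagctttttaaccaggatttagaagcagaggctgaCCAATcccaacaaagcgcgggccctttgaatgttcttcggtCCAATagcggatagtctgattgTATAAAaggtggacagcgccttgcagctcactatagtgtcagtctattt
Hist1h4f: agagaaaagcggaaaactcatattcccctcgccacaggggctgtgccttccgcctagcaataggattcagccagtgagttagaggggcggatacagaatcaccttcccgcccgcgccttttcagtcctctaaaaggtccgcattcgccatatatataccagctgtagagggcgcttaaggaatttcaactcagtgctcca
Hist1h2ad: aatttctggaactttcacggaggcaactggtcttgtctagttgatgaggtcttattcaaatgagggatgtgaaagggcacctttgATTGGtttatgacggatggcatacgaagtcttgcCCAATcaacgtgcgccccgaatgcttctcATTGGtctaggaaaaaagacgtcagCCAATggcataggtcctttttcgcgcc
Hist1h3d: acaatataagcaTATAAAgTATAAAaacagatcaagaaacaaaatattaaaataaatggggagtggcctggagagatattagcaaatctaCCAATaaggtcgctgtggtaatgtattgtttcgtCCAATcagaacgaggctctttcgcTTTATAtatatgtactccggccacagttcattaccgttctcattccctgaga
Hist1h1b holds the H1 box, CCAAT and TATAAA in this stretch, and Hist1h2bk holds CCAAT and the octamer. Hist1h3b holds CCAAT and TATAAA. Hist1h4f holds none of the 4 motifs in the printed stretch. Hist1h2ad and Hist1h3d both hold several CCAAT letters, and TATAAA lies in the printed stretch of Hist1h3d but not of Hist1h2ad.

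Libraries held 8640699 to 16817347 counts, of which 81.1% to 88.4% fell on the ribosomal precursor row Rn45s. That row was left out, which left 1522199 to 2515583 counts a library. Histone members took 1635 to 5026 counts in the 12 resting and 23145 to 39279 in the 15 stimulated libraries. The share of the remaining counts on protein-coding genes differed between libraries, from 18.7% to 45.2% in resting and from 31.8% to 63.6% in stimulated cells. Levels are therefore given as CPM, counts divided by the library size and scaled up to a common total, with library sizes adjusted by TMM, a method that centres most genes, and sums are also given as CPM of the unscaled totals outside Rn45s. In bulk RNA, fewer cells of a type and less RNA per cell cannot be told apart. Cd4 was at 171 to 372 CPM in CD4+ and at most 5.49 CPM in CD8+ libraries, and Cd8a at 82.8 to 403 CPM in CD8+ and at most 4.62 in CD4+ libraries, as labelled. Over the 27 libraries, summed T cell markers lay at 530.0 to 1436 CPM, B cell markers at 0.788 to 22.2, myeloid markers at 20.8 to 69.0, NK cell markers at 1.34 to 70.6 and erythroid and platelet markers at 0.275 to 27.1 CPM. Rptor was not called in any Raptor KO comparison (log2 difference -0.25 ± 0.20, adjusted p = 0.427 in stimulated CD4+ cells), and Rictor was not called in Rictor KO cells (-0.20 ± 0.16, adjusted p = 0.961). Whole-gene counts do not check the loss of single exons.

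Antibody stimulation raised nearly the whole family in both cell types and both genotypes tested. Summed over all members, WT CD4+ cells went from 2362, 2190 and 1969 CPM at rest to 18610, 14270 and 10080 CPM after stimulation, and WT CD8+ cells from 2227, 1788 and 1526 to 11870, 15500 and 10920 CPM. Every stimulated library lay above every resting one. The mean ratio was 6.59 in WT CD4+ cells and 6.91 in WT CD8+ cells, or 8.85 and 12.7 on unscaled totals outside Rn45s. In Raptor KO cells the sums went from 2295, 2688 and 1519 to 14100, 20080 and 13540 CPM (CD4+) and from 1965, 2473 and 1457 to 19370, 15470 and 15250 CPM (CD8+). Those ratios were 7.34 and 8.50, or 8.19 and 11.4 on unscaled totals. The 16 tested genes of a DNA replication list were all called higher with stimulation in both WT cell types, and so were 10 of 10 mitosis genes. Of all genes 32.4% (WT CD4+) and 32.0% (WT CD8+) were. The mitosis genes together held only 7.65, 9.68 and 8.22 CPM in resting WT CD4+ and 7.80, 3.29 and 11.0 CPM in resting WT CD8+ libraries. Genes that low passed the count filter through stimulated libraries and had to differ. The part of both lists in the histone levels was not tested.

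**Figure D1:**
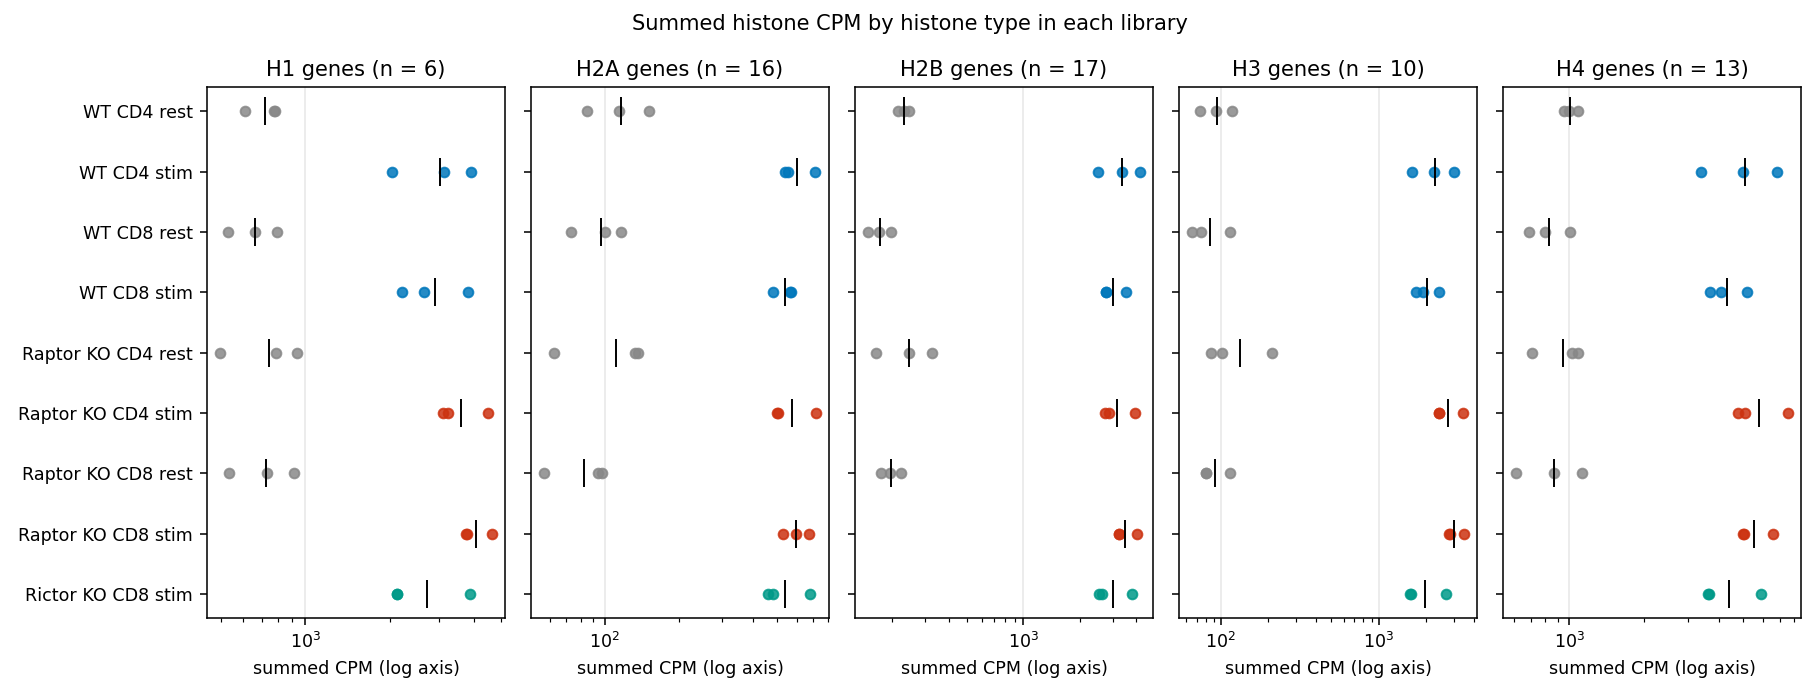
Summed CPM of H1, H2A, H2B, H3 and H4 genes in each of the 27 libraries (points, log axis), by group. Within each type the 15 stimulated libraries lie above the 12 resting libraries, and in CD4+ cells the stimulated WT and Raptor KO libraries overlap for each type.

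Single genes were tested by edgeR's quasi-likelihood fit over 10493 genes, and called where the Benjamini-Hochberg adjusted p was under 0.05. All adjusted p-values here come from that fit unless another tool is named. Of the 62 members, 54 had enough counts to be tested. In WT CD4+ cells 50 of 54 were called higher and 2 lower, where 32.4% and 32.5% of all genes were. WT CD8+ cells had 49 higher and 2 lower (all genes 32.0% and 30.8%). Raptor KO CD4+ cells had 49 and 2 (27.9% and 24.1%), and Raptor KO CD8+ cells 50 and 0 (29.5% and 26.0%). The median log2 fold change over the 54 was 4.42, 4.42, 3.95 and 4.22 in that order, against -0.03, 0.00, 0.04 and 0.03 over all genes tested. A member that passed the count filter only through its stimulated libraries had to differ. In WT CD4+ cells 21 tested members had a resting mean under 5 CPM, and the 33 members above that level still had 29 called higher and 2 lower. The 8 untested members had 1 to 27 counts over all libraries, among them the testis genes Hist1h1t, Hist1h2ba and Hist1h2aa. Leaving out any single library moved the 4 counts of called genes by no more than 1.

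Among the linker histones, 4 of the 5 tested H1 genes rose in WT CD4+ cells, with a median log2 change of 3.80, and the same number in WT CD8+ cells (3.88). Hist1h1b, which encodes H1.5, was at 4.87, 2.58 and 4.62 CPM in resting and 625, 536 and 358 CPM in stimulated WT CD4+ libraries. The resting libraries were all within a few CPM of each other and far below the stimulated ones, and the log2 change was 6.94 ± 0.59 (adjusted p = 4.81e-09). It was 7.98 ± 0.66 in WT CD8+ cells. Hist1h1b passed the count filter through stimulated libraries, so it had to differ. Hist1h1d (H1.3) rose by 3.80 ± 0.46 and Hist1h1e (H1.4) by 2.25 ± 0.29 in WT CD4+ cells. Hist1h1c, which encodes H1.2, was the exception. Its level was 534, 554 and 422 CPM at rest and 1106, 780.2 and 488 CPM after stimulation in WT CD4+ cells, and these groups overlapped. The log2 difference of 0.65 ± 0.34 was not called (adjusted p = 0.0961), nor that in WT CD8+ cells (0.58 ± 0.34, adjusted p = 0.138). Without stimulated WT CD4+ replicate 3 it was called (log2 difference 0.92, adjusted p = 0.0271). In Raptor KO cells Hist1h1c was called higher, by 1.21 ± 0.34 in CD4+ (adjusted p = 0.00561) and 1.29 ± 0.34 in CD8+ cells (adjusted p = 0.00319). No member passed the test of the difference between genotypes, given further on. Per kilobase of exon, Hist1h1c was among the highest members at rest (323 CPM per kb in WT CD4+ cells, behind Hist1h4d at 351). The length is that of all annotated exons together, 312 to 7425 bases over the members. Rankings by length, here and below, therefore depend on how far each gene is annotated. The testis linker histone Hist1h1t had too few counts to test.

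H2A genes moved in both directions: 11 of 13 tested genes rose and 2 fell in WT CD4+ cells (median log2 change 3.38), and 11 rose and 1 fell in WT CD8+ cells (4.65). Hist1h2ab went from 5.57, 0.645 and 1.03 CPM to 140.1, 124 and 114 CPM in WT CD4+ libraries, which did not overlap, a log2 change of 5.77 ± 0.37. This gene too passed the count filter through stimulated libraries and had to differ. Hist1h2ak changed by 4.69 ± 0.42 and Hist1h2ai by 3.31 ± 0.41. Hist2h2ac, a Hist2 gene with a high resting level, went only from 64.7, 45.2 and 23.6 to 147, 93.6 and 88.9 CPM. Here too the groups did not overlap, with a log2 change of 1.31 ± 0.31. Counts of histone genes carry a mapping limit, strongest for H2A: a median of 34.0% of the 50-base words of an H2A gene occur in no other annotated gene. The median was 42.8% for H3, 55.9% for H2B, 60.5% for H4 and 98.9% for H1 genes. All 16 H2A genes overlap an exon on the opposite strand, and 2 of them, Hist3h2a and Hist1h2ac, also overlap one on the same strand. Outside H2A, Hist1h2be and Hist1h1e overlap each other's exons on the same strand. The strand setting of the counting is not given in the sources used here, so reads of an H2A gene and of its antisense partner cannot be told apart.

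The H2B genes rose by more at the median, with 13 of 14 tested members called higher in WT CD4+ cells (median log2 change 5.16) and 12 in WT CD8+ cells (5.45). Hist1h2bg, the H2B gene with the highest level per length (994 CPM per kb in stimulated WT CD4+ cells), went from 53.6, 58.1 and 39.0 to 729.8, 623 and 489 CPM. That change was 3.61 ± 0.35 on the log2 scale, with all stimulated libraries above all resting ones. Hist1h2bk was nearly silent at rest, at 0.696, 0.645 and 1.03 CPM (4 counts in all), and reached 363, 324 and 225 CPM after stimulation. Its fitted log2 change of 8.44 ± 0.58 was the largest of the H2B genes. In WT CD8+ cells it had 3 resting counts and a ratio of 399, with a 95% counting interval of 136 to 1940. Hist1h2bk passed the count filter through stimulated libraries, so it had to differ. Hist1h2bj rose by 6.39 ± 0.42 and Hist1h2bb by 5.37 ± 0.50, while Hist1h2be, which is annotated for over 1000 bases after its stop codon, rose by 1.48 ± 0.34. Hist3h2ba rose in WT CD4+ cells alone of the 4 stimulation comparisons, by 1.45 ± 0.38 (adjusted p = 0.000926), from 4.87, 7.10 and 6.68 to 17.5, 23.2 and 12.1 CPM. In WT CD8+ cells its difference was 0.58 ± 0.39 (adjusted p = 0.195), and the difference between the cell types did not pass the test.

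All 10 H3 genes were tested, and all 10 were called higher in each of the 4 stimulation comparisons (median log2 change 5.01 in WT CD4+, 5.57 in WT CD8+, 4.51 in Raptor KO CD4+ and 5.24 in Raptor KO CD8+ cells). Hist1h3c went from 3.48, 1.94 and 2.57 CPM to 683, 500.0 and 387 CPM in WT CD4+ libraries, a change of 7.60 ± 0.67. The lowest stimulated library was far above the highest resting one. Hist1h3b, whose start is printed above, had 3 counts in resting WT CD4+ cells and a level of 162, 155 and 104 CPM after stimulation, a ratio of 216 (95% counting interval 73.7 to 1050). Hist1h3a rose by 4.48 ± 0.36, Hist1h3f by 3.73 ± 0.31 and Hist1h3e by 3.44 ± 0.34. Hist1h3e was the H3 gene with the highest resting level per length, at 54.3, 51.0 and 37.5 CPM. Hist2h3c2, outside the Hist1 cluster, stayed low, with 2 resting and 82 stimulated counts in WT CD4+ cells. Like Hist1h3c, Hist1h3b and Hist1h3g, it passed the count filter there through stimulated libraries, so these genes had to differ.

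H4 genes held the largest share of histone counts at rest and rose by less at the median, 2.37 in WT CD4+ and 2.38 in WT CD8+ cells, with 12 of 12 tested members called higher in each of the 4 stimulation comparisons. Hist1h4f was at 17.4, 14.8 and 8.73 CPM in resting and 1359, 928 and 609.8 CPM in stimulated WT CD4+ libraries. It rose by 6.16 ± 0.70 and had the highest level per length of all members after stimulation, 2470 CPM per kb. Hist1h4d, the highest per length at rest, went from 347, 330.5 and 519.7 to 1512, 1177 and 717 CPM. Its groups did not overlap and its change was 1.51 ± 0.28. Hist1h4c rose by 1.99 ± 0.35 and Hist1h4h by 2.00 ± 0.33, from 278, 245 and 179.7 and 127, 116 and 57.5 CPM at rest. Hist4h4, the lone gene on chromosome 6, rose by 1.56 ± 0.29 in WT CD4+ and 1.61 ± 0.30 in WT CD8+ cells.

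**Figure D2:**
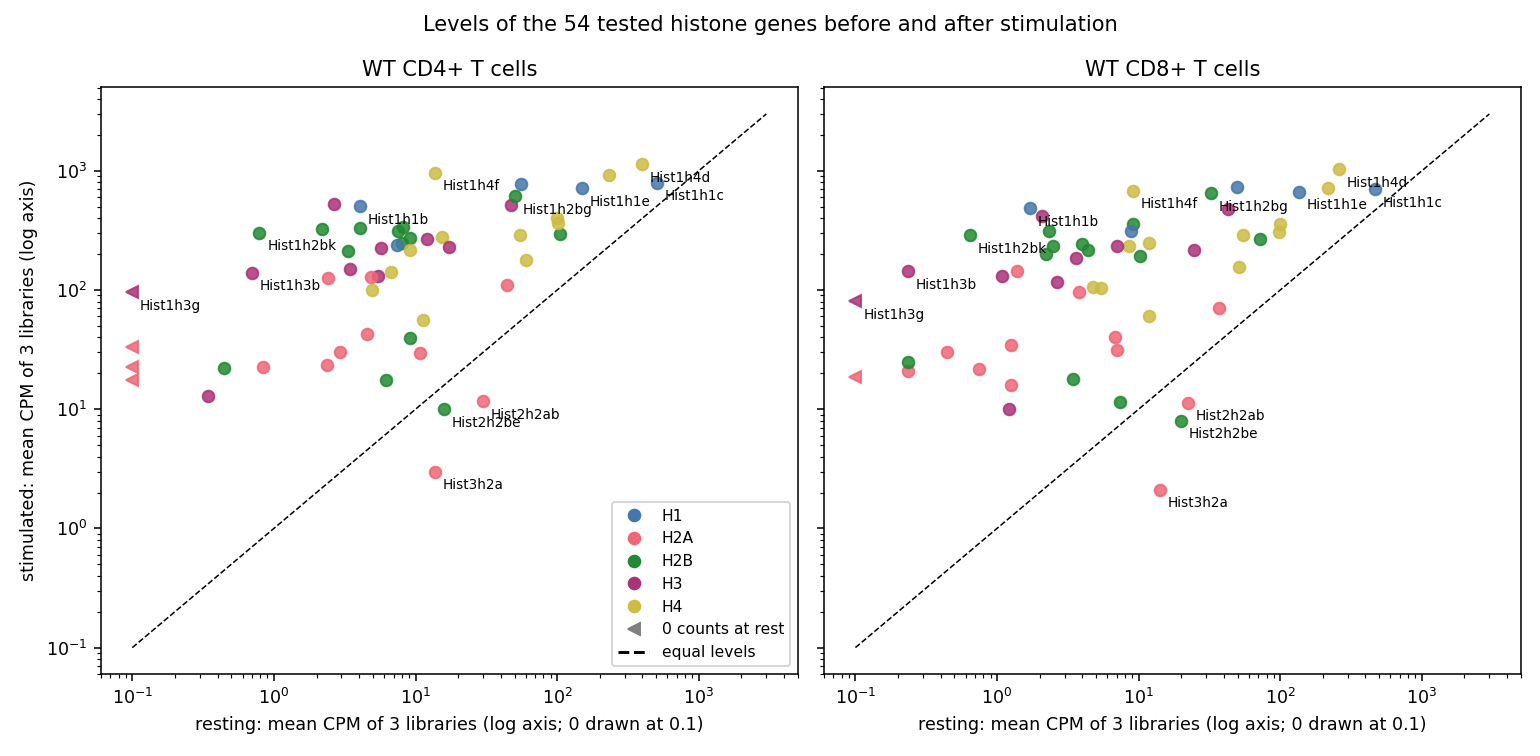
Mean CPM of each of the 54 tested members in resting (x axis) and stimulated (y axis) WT CD4+ and WT CD8+ libraries, n = 3 a group, both axes logarithmic with a level of 0 drawn at 0.1 and the diagonal marking no change. Members low at rest lie farthest above the diagonal, and Hist3h2a lies below it in both cell types.

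Several members had no count in a resting group, so their change is a lower bound against a floor of 3 counts over the group (0.608 CPM in WT CD4+ cells and 0.703 CPM in WT CD8+ cells). In WT CD4+ cells the H2A genes Hist1h2ah, Hist1h2ag and Hist1h2af were at least 28.8-fold, 37.1-fold and 55.0-fold higher after stimulation, and the H3 gene Hist1h3g at least 157-fold higher. In WT CD8+ cells Hist1h2ah was at least 26.4-fold and Hist1h3g at least 115-fold higher. Their stimulated levels in WT CD4+ cells were 15.6, 19.2 and 17.9 CPM for Hist1h2ah, 42.2, 28.1 and 30.0 for Hist1h2af and 129.7, 94.9 and 62.2 for Hist1h3g. All of these libraries were above the floor. In Raptor KO cells the bound for Hist1h2ah was 13.9-fold (CD4+) and 17.8-fold (CD8+), and for Hist1h3b in CD8+ cells 324-fold. With such genes at their bounds the medians over the 54 were 4.42, 4.42, 3.84 and 4.18. Hist1h2bp had 2 resting counts in WT CD4+ cells and a ratio of 49.9 (13.6 to 416).

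Few members fell with stimulation, and none of them lies in the Hist1 cluster. Hist3h2a, an H2A gene of the Hist3 cluster, was at 13.9, 15.5 and 11.8 CPM in resting and 4.54, 3.56 and 0.826 CPM in stimulated WT CD4+ libraries. The groups did not overlap, and the log2 change was -2.39 ± 0.52 (adjusted p = 0.000138). It also fell in WT CD8+ (-2.84 ± 0.54) and Raptor KO CD4+ cells (-2.69 ± 0.57). In Raptor KO CD8+ cells it was at 11.6, 4.73 and 1.78 and 2.51, 5.75 and 4.31 CPM, overlapping groups, with -0.55 ± 0.56 and an adjusted p of 0.418. Exons of Hist3h2a overlap exons of Trim17 on the same strand, where strand cannot separate the reads of these genes. The part of Trim17 in the Hist3h2a levels was not tested. Hist2h2be, an H2B gene, fell in WT CD8+ cells (log2 change -1.30 ± 0.37, adjusted p = 0.00316) and in Raptor KO CD4+ cells (-1.02 ± 0.40, adjusted p = 0.0313), and was not called in the other 2 comparisons. The Raptor KO CD4+ call was lost without resting replicate 1 or 2 or stimulated replicate 1 or 3 (adjusted p 0.0513 to 0.354), while without resting replicate 3 it was called in WT CD4+ (adjusted p = 0.0212) and Raptor KO CD8+ cells (adjusted p = 0.0431). Hist2h2ab, which was named after its values were seen, fell in WT CD4+ cells from 31.3, 29.7 and 28.8 to 16.9, 9.36 and 8.81 CPM (-1.44 ± 0.53, adjusted p = 0.0242). That call was lost without resting replicate 1 (adjusted p = 0.0542) or stimulated replicate 2 or 3 (0.072 and 0.105). Its neighbour Hist2h2ac, in the same cluster, rose, though in WT CD8+ cells not without resting replicate 2 or 3 (adjusted p 0.0598 and 0.0754).

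The makeup of the histone pool shifted from H1 and H4 towards H2B and H3. In WT CD4+ cells H1 genes held 33.1, 35.2 and 30.9% of all histone counts at rest and 21.0, 21.9 and 20.3% after stimulation. H2B genes went from 9.72, 9.79 and 12.5% to 22.4, 23.6 and 24.9%, and H3 genes from 5.01, 4.24 and 3.76% to 16.1, 15.7 and 16.1%. In none of these 3 types did a resting library overlap the stimulated ones. The H4 share went from 46.6% to 35.0% and the H2A share from 5.31% to 4.35%, as means of 3 libraries. As summed CPM, the ratio of stimulated to resting was 24.1 for H3, 14.6 for H2B, 5.14 for H2A, 5.00 for H4 and 4.20 for H1.

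The size of the change went with the resting level, which is part of the fold change itself and so is given only as a description. In WT CD4+ cells the 13 members with a resting mean of at least 40 CPM had 12 called higher, with a median log2 change of 1.99. The 20 members between 5 and 40 CPM had 17 higher and 2 lower (median 4.42), and the 21 members under 5 CPM were all called higher. The median of those 21 was 5.52 with the 4 genes that had no resting count at their lower bounds, and 6.00 with their fitted values. WT CD8+ cells gave medians of 1.89, 3.67 and 5.92 over 11, 18 and 25 members, with 2 genes at their bounds in the last class (6.14 with fitted values). The members annotated with long stretches after the stop codon changed less. The 9 tested members with at least 1000 such bases (Hist3h2a, Hist1h2bh, Hist1h1d, Hist1h2be, Hist1h1e, Hist1h2ac, Hist2h2be, Hist2h4 and Hist4h4) had 7 higher and 1 lower and a median of 1.56 in WT CD4+ cells. The other 45 had 43 higher and 1 lower and a median of 4.66. The medians in WT CD8+ cells were 1.89 and 4.80. Within the 9, changes ran from -2.39 (Hist3h2a) to 6.00 (Hist1h2bh) in WT CD4+ cells. The limit of 1000 bases was chosen after the values were seen.

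Along the chromosome, members called higher in WT CD4+ cells were found in every stretch that held a tested member. On chromosome 13, the group at 21715763 to 21837530 held 13 tested members and all 13 rose in each stimulation comparison (median 4.69 in WT CD4+ cells). All 5 members at 22035164 to 22043676, Hist1h2bk among them, rose, with a median of 5.21 when the 2 genes with no resting count, Hist1h2ah and Hist1h2ag, are set at the lower bounds given above (8.13 with their fitted values). At 23531050 to 23764406, 27 of 28 tested members rose (median 4.09). On chromosome 3, at 96219865 to 96263311, 3 of 5 rose and 1 fell (median 1.31). The 2 members on chromosome 11, Hist3h2ba and Hist3h2a, lie within 58948920 to 58956830 and moved in opposite directions in WT CD4+ cells. Head-to-head pairs were common: 13 pairs have starts that face away from each other across 175 to 659 bases, and 12 of them join an H2A to an H2B gene. In 9 such pairs both genes were tested. Partners did not always change alike: Hist2h2ac rose by 1.31 while its partner Hist2h2be, 238 bases away, had -0.69 and was not called. Hist1h2ak and Hist1h2bn, 295 bases apart, rose by 4.69 and 4.89.

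Loss of Raptor changed few histone genes in stimulated cells. In CD4+ cells 1 of 54 members was called higher and 4 lower, where 8.82% and 8.56% of all genes were. In CD8+ cells 1 was called higher and 2 lower (6.30% and 5.42% of all genes). The median log2 difference over the members was 0.09 in CD4+ and 0.38 in CD8+ cells, against 0.04 and 0.03 over all genes. The clearest member was Hist1h2ad, an H2A gene, at 22.1, 22.7 and 25.3 CPM in stimulated WT and 6.27, 12.4 and 5.67 CPM in Raptor KO CD4+ libraries. In CD8+ cells it was at 14.6, 18.2 and 15.6 and 7.53, 8.36 and 2.74 CPM. No Raptor KO library reached the lowest WT library in either cell type. The log2 differences were -1.58 ± 0.36 (adjusted p = 0.00168) and -1.45 ± 0.39 (adjusted p = 0.01). Its call held under 17 of 17 alternative settings in CD4+ cells. In CD8+ cells it held under 15 of 17 and was lost with a minimum fold change of 1.5 and when Raptor KO replicate 3 was left out (log2 difference -0.998, adjusted p = 0.135).

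Hist1h3d, the H3 gene next to Hist1h2ad on the same strand, was also lower in both cell types. Its levels were 177, 154 and 116 CPM in WT and 82.0, 115 and 76.5 CPM in Raptor KO CD4+ cells, and 107, 163 and 120.2 against 75.3, 88.3 and 68.2 CPM in CD8+ cells. In both cell types the groups did not overlap. The differences were -0.71 ± 0.22 (adjusted p = 0.025) and -0.75 ± 0.22 (adjusted p = 0.0244), and these calls held under 12 and 13 of 17 alternatives. They were lost in CD4+ cells without WT replicate 1 or 2 or Raptor KO replicate 1 or 3 (adjusted p 0.0638 to 0.104), and in CD8+ cells without WT replicate 2 or Raptor KO replicate 1 or 3 (0.0645 to 0.114). The gene on the other side of Hist1h2ad, the H2B gene Hist1h2bf 184 bases away, had -0.55 ± 0.31 (adjusted p = 0.241) and -0.49 ± 0.38 (adjusted p = 0.439). Of the 50-base words of Hist1h2ad 32.9% occur in no other annotated gene, and of those of Hist1h3d 75.2%.

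In CD4+ cells alone, 2 more H2A genes were called lower and 1 higher. Hist1h2ah was at 15.6, 19.2 and 17.9 CPM in WT and 6.84, 8.27 and 11.8 in Raptor KO libraries, without overlap (-0.95 ± 0.34, adjusted p = 0.0467). Hist1h2ae, named after its values were seen because the count is small, was at 32.4, 26.3 and 31.6 and 14.2, 24.1 and 14.6 CPM, also without overlap (-0.80 ± 0.23, adjusted p = 0.0145). Hist1h2af was higher, at 42.2, 28.1 and 30.0 CPM in WT and 43.3, 62.7 and 43.5 CPM in Raptor KO libraries (0.59 ± 0.21, adjusted p = 0.0446). These calls held under 10, 13 and 6 of 17 alternatives. Those of Hist1h2ah and Hist1h2af were lost without WT replicate 2 or 3 or Raptor KO replicate 1 or 2 (adjusted p 0.118 to 0.187 and 0.0557 to 0.275), and that of Hist1h2ae without WT replicate 3 or Raptor KO replicate 1 or 3 (0.0643 to 0.0918). Only 7.87% of the 50-base words of Hist1h2ah and 6.00% of those of Hist1h2af occur in no other annotated gene, so how reads were shared out among near-identical H2A copies could split or join their counts. In CD8+ cells the 3 genes had -0.68 ± 0.32, -0.25 ± 0.21 and 0.41 ± 0.21 and were not called. The H3 gene Hist1h3a was called higher in CD8+ cells, with 219.1, 276 and 208 CPM in WT and 499, 421 and 429 CPM in Raptor KO libraries, which did not overlap. Its difference was 0.94 ± 0.29 (adjusted p = 0.0391), and in CD4+ cells it was 0.83 ± 0.29 (adjusted p = 0.0541). The CD8+ call held under 8 of 17 alternatives and was lost without WT replicate 1 or 3 or any of the Raptor KO replicates (adjusted p 0.0682 to 0.142), while without WT replicate 1 the CD4+ difference was called (adjusted p = 0.0164).

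**Figure D3:**
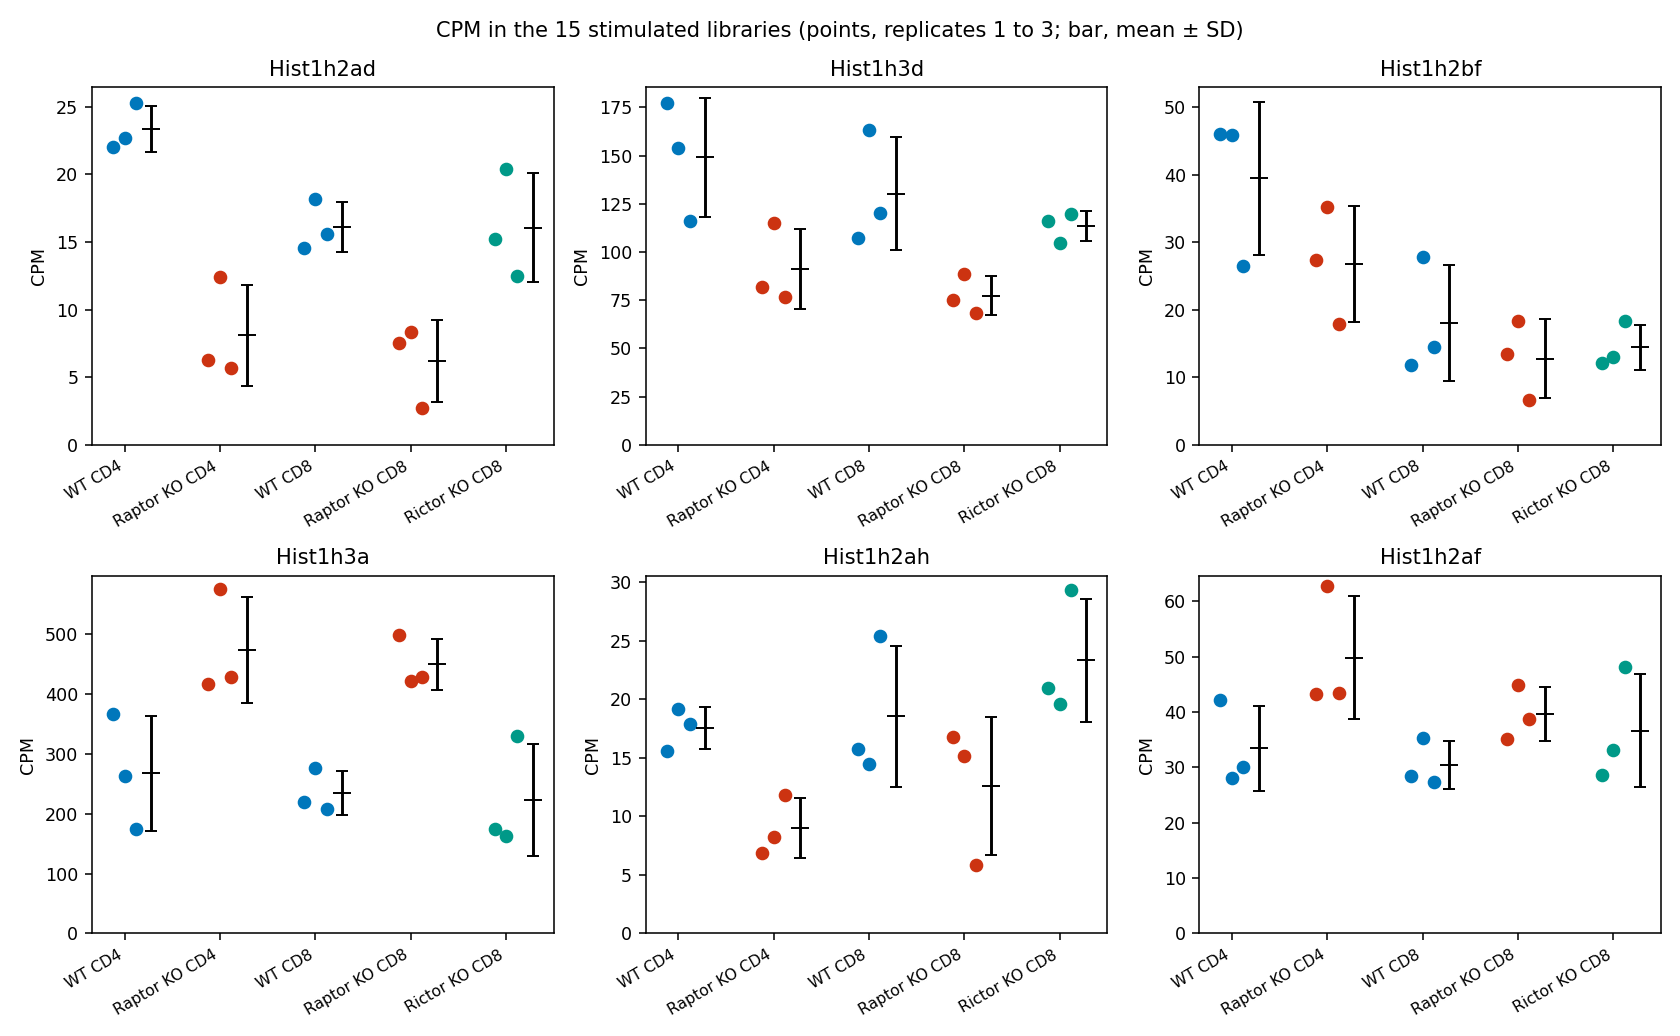
CPM of 6 members in each of the 15 stimulated libraries, by group (points, n = 3 a group). Hist1h2ad and Hist1h3d are lower in all Raptor KO libraries than in all WT libraries of the same cell type, and Hist1h3a is higher in Raptor KO CD8+ libraries.

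Within a stimulated group, 1 library tended to be high across the family on the TMM scale. Raptor KO CD4+ replicate 2 was the highest of its 3 libraries in 51 of 54 members (median 1.41 times the mean of the other 2), WT CD4+ replicate 1 in 48 (1.53 times), WT CD8+ replicate 2 in 46 (1.30 times) and Raptor KO CD8+ replicate 1 in 41 (1.26 times). Each was also the library with the lowest protein-coding share of its group, whose part was not tested. On unscaled totals outside Rn45s, the summed level was still highest in Raptor KO CD4+ replicate 2 and WT CD8+ replicate 2. It was 18130, 19750 and 16070 in WT CD4+ and 15100, 17380 and 17470 in Raptor KO CD8+ replicates 1 to 3. There replicate 1 was not the highest. The number of called genes depended on single libraries and on the scaling. In CD4+ cells, 5 calls became 2 without WT replicate 2, 3 without WT replicate 3, 1 without Raptor KO replicate 1 and 3 without Raptor KO replicate 2 or replicate 3. In CD8+ cells, 3 calls became 2 without any of the 3 WT replicates or Raptor KO replicate 2, 1 without Raptor KO replicate 1 and 0 without replicate 3. With library totals outside Rn45s in place of TMM, 0 were higher and 11 lower in CD4+ cells and 0 higher and 4 lower in CD8+ cells. With totals that include Rn45s the split was 0 and 5 in CD4+, and 0 and 2 in CD8+ cells. Fitted on the compared groups alone it was 3 and 6 in CD4+, and 12 and 2 in CD8+ cells. The difference for Hist1h2ad was negative under all 17 alternatives in both cell types, and called under the 17 and 15 given above. Summed myeloid markers were higher in Raptor KO than in WT libraries, without overlap, at 20.8, 26.3 and 28.1 against 41.6, 43.4 and 50.5 CPM in stimulated CD4+ cells and 44.2, 50.9 and 58.3 against 63.6, 62.7 and 69.0 CPM in CD8+ cells. Of the 8 genes of that list, Ctss and Cst3 held nearly all of the sum. Ctss was at 11.7, 12.0 and 17.3 CPM in WT and 31.3, 33.1 and 39.2 CPM in Raptor KO CD4+ libraries. In CD8+ libraries it was at 24.04, 28.91 and 30.55 against 34.32, 32.41 and 49.4 CPM. Cst3 overlapped between the genotypes. It was at 8.433, 13.37 and 9.907 against 9.684, 8.961 and 10.39 CPM in CD4+ libraries. In CD8+ libraries it was at 19.71, 21.95 and 26.59 against 25.95, 29.27 and 17.64 CPM. The other 6 (Lyz2, Csf1r, Itgam, Cd14, Fcer1g and Tyrobp) had 0 to 2 counts each in every one of these 12 libraries.

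**Figure D4:**
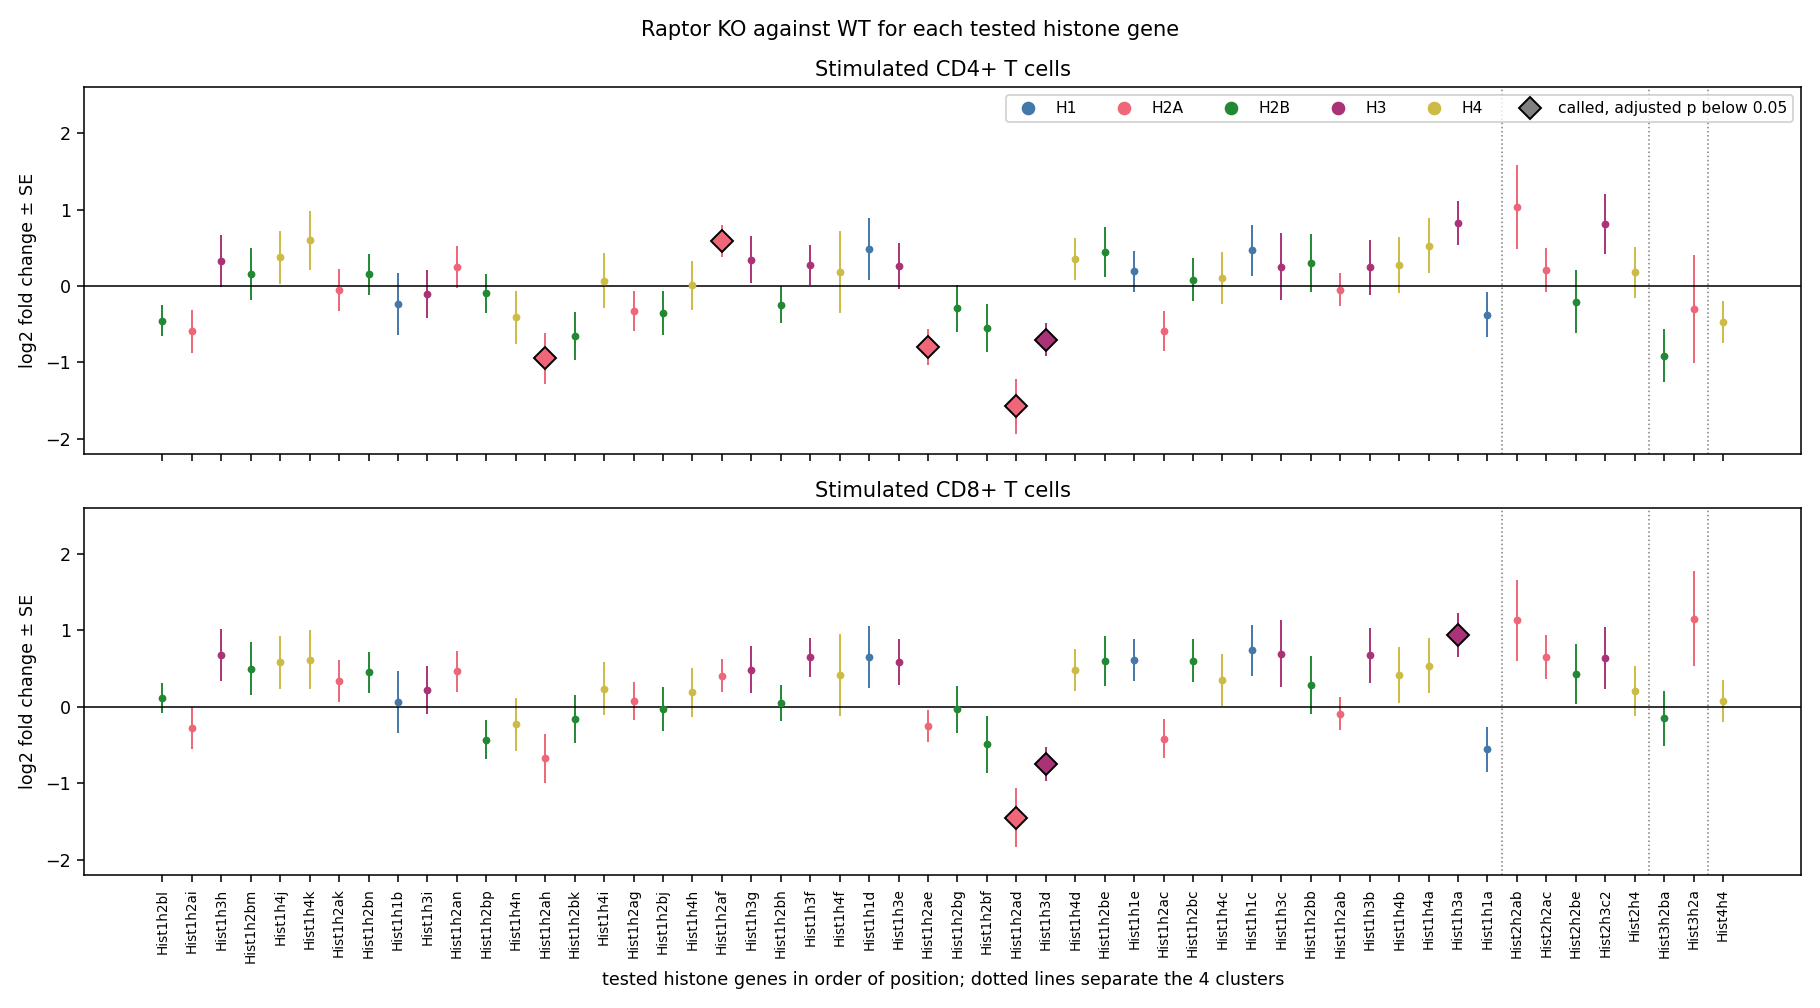
Log2 difference (± SE) of each tested member between Raptor KO and WT stimulated cells, in chromosome order, for CD4+ and CD8+ cells, with called members marked. Most members lie near 0 in CD4+ and slightly above 0 in CD8+ cells, and Hist1h2ad is the lowest in both.

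Summed histone levels in stimulated cells were 18610, 14270 and 10080 CPM in WT and 14100, 20080 and 13540 CPM in Raptor KO CD4+ libraries, and 11870, 15500 and 10920 against 19370, 15470 and 15250 CPM in CD8+ libraries. The groups overlapped in both cell types. The ratio of means was 1.11 in CD4+ and 1.31 in CD8+ cells on the TMM scale, and 0.862 and 0.962 on unscaled totals outside Rn45s, so its direction turned with the scaling. In CD8+ cells the change of scaling moved every gene by -0.45 on the log2 scale, and in CD4+ cells by -0.39. The protein-coding share of the counts differs between these libraries, and its part in the sums was not tested. Within the pool, the H2B share was 22.4, 23.6 and 24.9% in WT and 20.4, 19.5 and 20.1% in Raptor KO CD4+ libraries, and 23.4, 22.9 and 25.3% against 20.8, 21.0 and 21.1% in CD8+ libraries. The H3 share was 16.1, 15.7 and 16.1% against 17.1, 17.1 and 17.9%, and 16.1, 15.5 and 15.7% against 17.8, 18.2 and 18.2%. In both cell types the Raptor KO libraries lay below the WT libraries for H2B and above them for H3, without overlap. Shares within a library do not depend on the scaling. They were picked out after the values were seen and are given without a test.

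**Figure D5:**
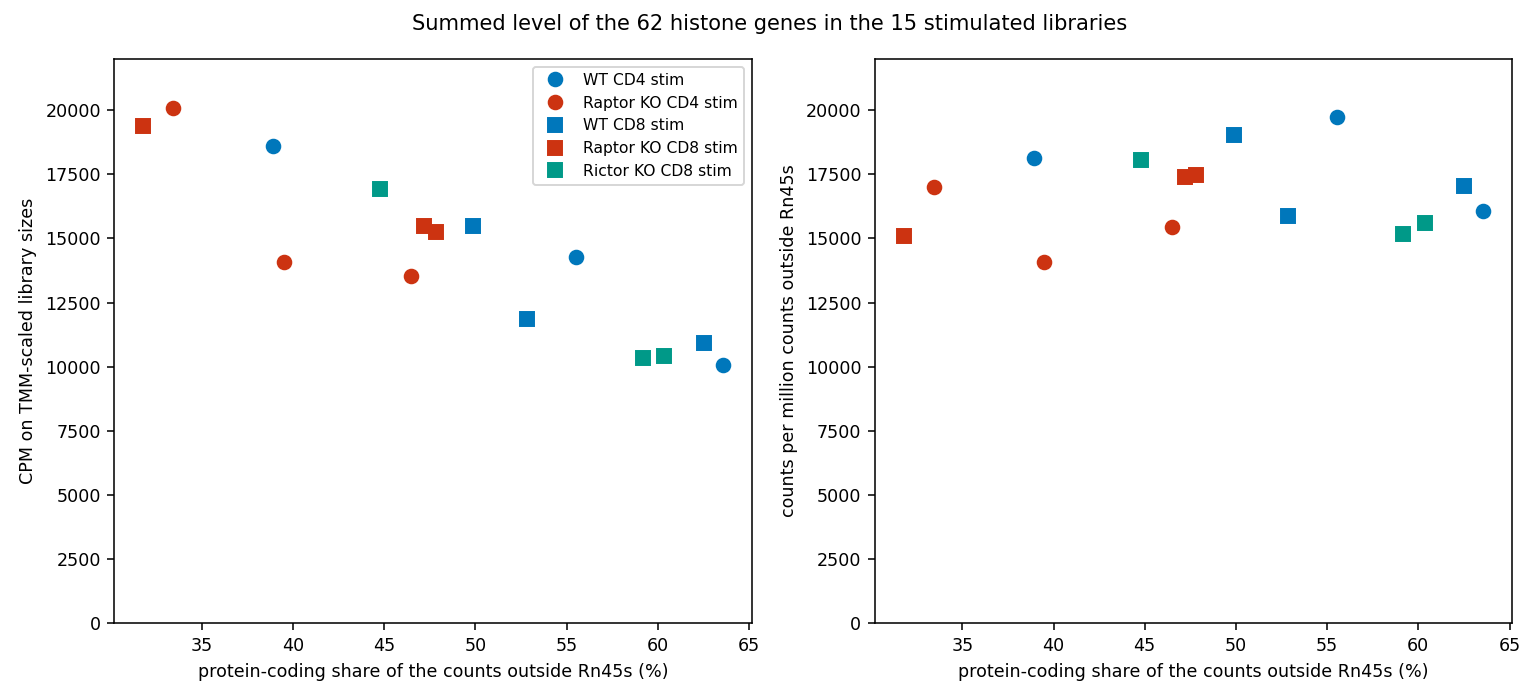
Summed histone level of each of the 15 stimulated libraries against the share of its counts outside Rn45s that fell on protein-coding genes, with the level as TMM-scaled CPM in the first panel and as CPM of unscaled totals outside Rn45s in the second. The order of the genotypes in the summed level differs between the panels.

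In resting cells no member was called between Raptor KO and WT. In CD4+ cells edgeR called 0 of 54 (3 at an unadjusted p under 0.05, smallest adjusted p 0.570, 0 by DESeq2 and 0 by limma-voom), where 0.143% of all genes were called. In CD8+ cells edgeR called 0 (5 unadjusted, smallest adjusted p 0.256, 0 by DESeq2 and by limma-voom), where 1.12% of all genes were. In the resting Raptor KO CD4+ group replicate 2 was the highest of the 3 libraries in 36 of 54 members, at a median of 1.80 times the mean of the other 2. Hist1h3c was at 1.33, 24.1 and 0.782 CPM and Hist1h4f at 11.3, 54.01 and 3.13 CPM in that group. The summed mitosis markers were 4.67, 44.4 and 7.82 CPM and the summed DNA replication markers 223, 287 and 211 CPM, highest in the same library. Their part in the histone levels was not tested. Stimulation in Raptor KO CD4+ cells still called 49 higher and 1 lower without that library.

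No member was called between Rictor KO and WT CD8+ cells. edgeR called 0 of 54 (0 at an unadjusted p under 0.05, smallest adjusted p 0.96, 0 by DESeq2 and 0 by limma-voom), and 0.162% of all genes. The summed level was 10350, 10430 and 16940 CPM, with replicate 3 the highest library in 50 of 54 members. The ratio to WT was 0.985 on the TMM scale and 0.940 on unscaled totals. The H2B share of 24.6, 25.1 and 22.5% and the H3 share of 15.6, 15.1 and 15.8% overlapped those of WT CD8+ cells. Hist1h2ad was at 15.2, 20.4 and 12.5 CPM and Hist1h3d at 116, 105 and 119.9 CPM. With the code in the titles as a block, or against the lone WT library that carries StP219, edgeR also called 0 members. A p above the threshold does not show that the genotypes are alike: the standard error for Hist1h2ad was 0.31 around a difference of 0.03.

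Rictor KO was also compared with Raptor KO in stimulated CD8+ cells, a comparison that uses the same Raptor KO libraries as before. There 2 members were higher in Rictor KO and 1 lower (7.00% and 8.30% of all genes). Hist1h2ad differed by 1.48 ± 0.38 (adjusted p = 0.00577), and its groups did not overlap. Hist1h2ah was at 20.9, 19.6 and 29.4 CPM in Rictor KO and 16.7, 15.2 and 5.88 CPM in Raptor KO libraries without overlap (0.95 ± 0.31, adjusted p = 0.0345). Hist1h3a was lower, at 175, 163 and 330.3 CPM (-1.02 ± 0.29, adjusted p = 0.0213), with every Rictor KO library below every Raptor KO library. The 3 calls became 1 without Raptor KO replicate 3, 2 without its replicate 1, 1 without Rictor KO replicate 1 or 2, and 8 without Rictor KO replicate 3. Each of the 3 genes lost its call without some of these libraries (adjusted p 0.0559 to 0.288). With the code in the titles as a block, Hist1h2ad was called (log2 difference 1.62, adjusted p = 0.00327), Hist1h2ah and Hist1h3a were not (adjusted p = 0.0923 and 0.0796), and Hist1h3d was called higher in Rictor KO cells (0.77, adjusted p = 0.00307). Against the lone Raptor KO library that carries StP219, the log2 differences were 2.595 for Hist1h2ad, 2.00 for Hist1h2ah and -0.91 for Hist1h3a. That library, assumed to vary like the other groups, is replicate 3, the lowest Raptor KO CD8+ library for Hist1h2ad and Hist1h2ah. Without it neither gene was called by edgeR (adjusted p = 0.0933 and 0.288), so this fit rests on the library that these calls needed.

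Few members differed between the cell types. Among stimulated WT cells 1 member was called, lower in CD8+ than in CD4+ cells (2.11% of all genes were lower). It was the H2B gene Hist1h2bf, at 46.1, 45.9 and 26.4 CPM in CD4+ and 11.8, 27.8 and 14.4 CPM in CD8+ libraries, whose groups overlapped (-1.15 ± 0.32, adjusted p = 0.028). That call was lost without WT CD4+ replicate 1 or 2 or WT CD8+ replicate 1 or 3 (adjusted p 0.0921 to 0.164), and with library totals in place of TMM. In resting WT cells edgeR called 0 of 54 (4 at an unadjusted p under 0.05, 0 by DESeq2, 0 by limma-voom, 3.33% of all genes). In resting Raptor KO cells it called 0 (9 unadjusted, 3 by DESeq2, 0 by limma-voom, 3.15%), and in stimulated Raptor KO cells 0 (2 unadjusted, smallest adjusted p 0.0628, 0 by DESeq2, 1 by limma-voom, 5.36%). Single libraries added calls: Hist1h2bj without resting Raptor KO CD4+ replicate 1 (log2 difference -2.35, adjusted p = 0.00152), and in stimulated Raptor KO cells Hist1h2ae without CD4+ replicate 2 (adjusted p = 0.0218) and Hist1h2bf without CD4+ replicate 3 or CD8+ replicate 2 (0.0398 and 0.0371).

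Differences between effects were tested as interaction terms and called no member. For the stimulation effect in Raptor KO minus WT, edgeR called 0 of 54 in CD4+ cells (5 at an unadjusted p under 0.05, 5.82% of all genes called) and 0 in CD8+ cells (4 unadjusted, 2.89%). The stimulation effect in WT CD8+ minus CD4+ cells gave 0 (1 unadjusted, 1.44%), and the Raptor KO effect in CD8+ minus CD4+ cells 0 (0 unadjusted, 0.334%). DESeq2 and limma-voom called 0 members in each of the 4. Without resting Raptor KO replicate 1 of the cell type, Hist1h2bj was called in CD4+ (log2 difference -1.84, adjusted p = 0.0104) and Hist3h2a in CD8+ cells (log2 difference 3.19, adjusted p = 0.0293).

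Genes that handle histone mRNA and histone proteins were read from 6 lists. Of all genes tested, 32.4% rose and 32.5% fell with stimulation in WT CD4+ cells, and 32.0% rose and 30.8% fell in WT CD8+ cells. Of 11 genes of histone mRNA processing, 6 rose and 1 fell with stimulation in WT CD4+ cells (median log2 change 0.62) and 8 rose and 1 fell in WT CD8+ cells (0.84). Slbp, which binds the stem-loop, went from 12.5, 11.6 and 18.0 to 46.7, 59.7 and 60.0 CPM in WT CD4+ cells (1.97 ± 0.20), and the groups did not overlap. Casp8ap2, whose protein FLASH works with the U7 snRNP, rose by 1.14 ± 0.18. Lsm11, a U7-specific ring protein, fell by 0.80 ± 0.28 (adjusted p = 0.0105), and Lsm10, its partner, had -0.18 ± 0.42 and was not called. Of 4 tested genes of histone mRNA decay, 2 rose in WT CD4+ and 3 in WT CD8+ cells, among them the helicase Upf1 by 0.84 ± 0.18 and 1.02 ± 0.18. The exonuclease gene Eri1 had 0.22 ± 0.18 in WT CD4+ cells and was not called.

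Of 12 transcription factor genes, 8 rose and 2 fell in WT CD4+, and 8 rose and 1 fell in WT CD8+ cells. The shares of all genes beside these and the next counts were 32.4% and 32.5%, and 32.0% and 30.8%. Npat rose by 0.60 ± 0.18, while Pou2f1, which encodes the octamer reader Oct-1, fell by 0.83 ± 0.14. Nfya, a subunit of the CCAAT-binding factor, fell by 0.55 ± 0.19, and Hinfp, which acts at H4 promoters, had -0.27 ± 0.23 and was not called. All 9 replication-coupled chaperone genes rose in WT CD4+ cells and 8 in WT CD8+ cells (medians 2.20 and 2.03). Among them Asf1b rose by 4.07 ± 0.39, and Chaf1a, a subunit of CAF-1, went from 0, 0.645 and 0.514 CPM to 36.3, 44.1 and 38.0 CPM. Its 3 resting libraries held 2 counts in all. Asf1b and Chaf1a passed the count filter through stimulated libraries, so both had to differ. Of 5 chaperone genes outside replication, 1 rose and 2 fell in WT CD4+ cells: Hira rose by 1.12 ± 0.29 and Ubn1 fell by 0.77 ± 0.15. Of 9 tested variant histone genes that are not members, 7 rose and 1 fell in WT CD4+ and 5 rose and 3 fell in WT CD8+ cells. H2afx rose by 4.72 ± 0.21 and H2afz by 1.76 ± 0.18, and H2afj had -0.88 ± 0.31 (adjusted p = 0.0117).

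Between Raptor KO and WT stimulated CD4+ cells, 3 of 9 replication-coupled chaperone genes, 3 of 16 DNA replication genes and 3 of 10 mitosis genes were lower and none higher, where 8.56% of all genes were lower. In CD8+ cells the counts were 0, 1 and 0 lower, where 5.42% of all genes were. Over the other 5 histone-related lists, 41 tested genes had 2 higher and 4 lower in CD4+ and 3 higher and 4 lower in CD8+ cells. Of all genes 8.82% were higher in CD4+ and 6.30% in CD8+ cells. Lsm11 was higher in Raptor KO CD4+ cells (0.85 ± 0.27, adjusted p = 0.0245). The variant genes H2afz and H2afv differed in both cell types. H2afz was lower, with a log2 difference of -0.48 ± 0.16 in CD4+ (adjusted p = 0.0318) and -0.51 ± 0.16 in CD8+ cells (adjusted p = 0.0259). H2afv was higher by 1.26 ± 0.29 (adjusted p = 0.00178) and 1.47 ± 0.31 (adjusted p = 0.000998), with 6.49, 8.91 and 6.33 CPM in WT and 13.7, 20.0 and 18.4 CPM in Raptor KO CD4+ libraries. The H2afv groups did not overlap there.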

How the data were processed

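The authors deposited 1 matrix of raw counts per gene for 27 libraries, with reads aligned by STAR 2.6.0a to GRCm38 per the submitters' processing notes. Which program counted the reads, on which gene models and whether by strand, is not given in the sources used here. Per the labels' protocols, total RNA was fragmented, ligated to a 3′ adaptor and amplified without molecular identifiers being named, so counting intervals cover counting error only. Gene symbols came from GENCODE M21 (26765 of 26802 rows matched).

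The Rn45s row (81.1% to 88.4% of the counts) was left out. The rest was scaled by TMM and tested with edgeR 4.0.16 (R 4.3.3; quasi-likelihood with robust dispersion, filterByExpr with a minimum count of 10 and a minimum total of 15). Adjusted p-values (Benjamini-Hochberg, threshold 0.05) run over the 10493 genes tested, in a fit of all 9 groups. Alternatives used DESeq2 1.42.0 and limma 3.58.1, other scalings and filters, a replicate block, and each library left out. Totals without Rn45s, the protein-coding share as a covariate, leaving libraries out of the sums, and the 2 fits by the code in the titles were added after seeing the data. The tests were tried on simulated data. Tables were joined in Python 3.11.15 (pandas 2.3.3, scipy 1.17.1).

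The members and gene lists were chosen with earlier results of these data known. Named members are the 4 with the highest mean CPM in each histone type, and in each comparison and type the called member with the largest and the smallest change. Other named genes are the first 4 of each histone-related list, with Rptor, Rictor, Cd4 and Cd8a.

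Same-numbered libraries of the WT and Raptor KO groups share a number and a code in their titles, whose meaning the labels do not give. Their deviations correlated at -0.02 to 0.40, and in 1 comparison, CD8+ against CD4+ in resting Raptor KO cells, every pair was over 0.1. Same-numbered pairs with a Rictor KO library, where the code does not follow the number, ran from -0.18 to 0.07. Replicates differed by more than counting noise (chi-square per degree of freedom 2.38 to 39.2).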

Additional observations from a re-analysis of the deposited data

Results flagged for a closer look

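The pseudogene Hist3h2bb-ps, which is no member, has its own row in the matrix and counts above the resting level after stimulation. Its mean was 20.5 CPM in stimulated WT CD4+ cells, with 3.48, 7.10 and 3.08 CPM at rest and 25.3, 21.8 and 14.3 CPM after stimulation. In WT CD8+ cells the mean after stimulation was 14.4 CPM, with 4.96, 7.39 and 0.61 CPM at rest and 11.8, 17.7 and 13.9 CPM after it. In both cell types the stimulated libraries lay above the resting ones. How reads were shared between this row and the H2B genes it resembles was not tested.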

How the results depend on the processing

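Each left-out library counted on its own, the 128 called stimulation values of named members kept direction and call under 2157 of 2174 alternatives and lost the call under 17. The 11 called values of the other comparisons kept it under 127 of 193 and lost it under 66. None of these values reversed. The 4 stimulation counts stayed at 49 to 53 under every library left out and were 52, 51, 51 and 50 with a replicate block. With the replicate block, Raptor KO against WT gave 6 calls in stimulated CD4+ and 3 in CD8+ cells, Rictor KO against Raptor KO 4, CD8+ against CD4+ in stimulated Raptor KO cells 1 and in resting Raptor KO cells 0, and it moved no other count by more than 1.5 times. Raptor KO against WT in stimulated CD4+ cells had 5 calls, which became 11 with totals without Rn45s, 11 with no filter on low counts, 9 with limma-voom, 9 with only the compared groups fitted and 1 with a minimum fold change of 1.5. Leaving out each library gave 1 to 5. In CD8+ cells 3 calls became 8 with no filter, 5 with limma-voom, 14 with only the compared groups and 0 with the minimum fold, and 0 to 2 without a library. Resting CD8+ cells went from 0 to 1 with no filter. Rictor KO against Raptor KO had 3 calls and 6 with no filter, 5 with DESeq2, 7 with limma-voom, 7 with only the compared groups, 0 with the minimum fold and 1 to 8 without a library. CD8+ against CD4+ in resting WT cells had 0 calls and 1 with either total and 2 with no filter. In stimulated WT cells it had 1 call and 0 with either total or the minimum fold, 2 with no filter, 2 with limma-voom and 0 to 1 without a library. In resting Raptor KO cells 0 became 5 with totals that include Rn45s, 4 without it, 1 with no filter, 3 with DESeq2, 1 with the protein-coding share as a covariate and 0 to 1 without a library. In stimulated Raptor KO cells 0 became 1 with no filter, 1 with limma-voom and 0 to 1 without a library. The difference of stimulation effects in CD4+ cells went from 0 to 4 with no filter and 0 to 1 without a library, and in CD8+ cells to 0 to 1 without a library. The cause of these moves was not tested, except that the minimum fold is a stricter test and no filter tests more genes. The log2 ratio of summed levels went from 2.68 to 3.15 for stimulation in WT CD4+ cells with totals without Rn45s. In WT CD8+ cells it went from 2.79 to 3.55 with totals that include Rn45s and 3.66 without it, and in Raptor KO CD8+ cells from 3.11 to 3.63. For Raptor KO against WT in stimulated CD8+ cells it went from 0.40 to -0.15 and -0.056, and for CD8+ against CD4+ in resting WT cells from -0.25 to -0.66 and -0.57. Members with few resting counts limit the precision of their folds, and the 8 untested members had too few counts to test, 5 of them with 2.68% to 11.3% of their 50-base words found in no other annotated gene. Totals without Rn45s moved every gene by 0.47 (log2) for stimulation in WT CD4+ and 0.87 in WT CD8+ cells, of which the moves in the sums consist.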
